A study of Mus musculus with 18 samples.

Results

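The P1 and P1cc baits are neighbouring 4C-seq viewpoints at the distal promoter of *Runx1*, and their significant contacts are described here side by side. All entries of both deposited lists were taken, which gave 395 *Dpn*II fragments for P1 and 536 for P1cc, 931 of the 3673 entries of the 6 baits of the study. A fragment found in both lists was counted once for the union of 695 fragments. The cells were HPC-7, an established mouse haematopoietic progenitor line grown with stem cell factor, with no genetic change or treatment between the baits. For each bait the study sequenced 2 replicates, from cells of different passages of this line, and 1 control made without the first ligation. That gave 18 libraries, 6 of them for P1 and P1cc. By the study's methods, the baits were amplified from the same 2 cell preparations and a control mixed from both. P1 and P1cc therefore share their cells and are not independent samples. The lists hold only fragments that passed in each replicate, without read counts, so the depth behind each entry is unknown and no spread between replicates can be given.

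*Runx1* encodes a transcription factor needed for the formation of definitive blood cells. Its distal promoter, P1, and its proximal promoter, P2, start transcripts whose proteins differ at the amino terminus, and in these progenitors P1 is the promoter in use. 4C-seq cuts cross-linked chromatin, ligates ends that lie close together in the nucleus and sequences what became joined to a chosen bait. CTCF and cohesin are proteins that bring distant stretches of a chromosome together, and the P1cc bait was placed at a site bound by them close to P1.

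The reference letters at the viewpoints are shown because they fix where each profile is read from. Each end below runs 5′ to 3′ from the start of the bait primer's place to the restriction site that closes it, in mm10 (GRCm38.p6), with the *Dpn*II site (GATC) or the *Bfa*I site (CTAG) in capitals. The forward ends lie on the minus strand at chr16:92825095-92825124 for P1 and chr16:92827854-92827873 for P1cc, and the reverse ends on the plus strand at chr16:92826345-92826365 and chr16:92828249-92828286.
P1 forward end: gagaggcagctcacaggtataccttgGATC
P1 reverse end: ggatttggtggctttcaGATC
P1cc forward end: tgcagctacaggcttgGATC
P1cc reverse end: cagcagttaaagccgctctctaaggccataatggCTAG
The P1 primers enclosed 92825105 to 92826364, centred 0.34 kb downstream of the P1 start site. The P1cc primers enclosed 92827855 to 92828268, centred 1.99 kb upstream of it. The bait fragment of P1 (92825095 to 92826361, 1267 bp) holds exons 1 and 2 of *Runx1*, and that of P1cc (92827854 to 92829083, 1230 bp) lies outside the gene. The fragments are separated by 7 others (1492 bp), and the centres of the baits lie 2327 bp apart. The P1 bait fragment holds 0 sites of *Bfa*I, the second enzyme used for both baits, whereas the P1cc bait fragment holds 2. The bearing of this on the lists was not tested. The reverse primer of P1 differed from the reference at 1 base, and the other 3 primers at none.

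A core of the CTCF motif (AGGGGGC or AGGTGGC, searched on both strands) was found 1 time in the P1cc bait fragment and 0 times in that of P1. Of 1126 windows of 1230 bp across the domain, 30.7% held such a core, so the match is a description and does not show a site. It lies at chr16:92828132-92828191 on the plus strand, with the core in capitals.
P1cc core: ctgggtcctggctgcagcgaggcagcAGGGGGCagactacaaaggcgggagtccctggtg
The 250 bases before the P1 start site (chr16:92826075-92826324, minus strand) lie wholly inside the P1 bait fragment and are shown as the promoter that the viewpoint reads from. Capitals mark the core TGTGG of the RUNX motif or GATAA of the GATA motif, which do not overlap, on either strand.
P1 promoter: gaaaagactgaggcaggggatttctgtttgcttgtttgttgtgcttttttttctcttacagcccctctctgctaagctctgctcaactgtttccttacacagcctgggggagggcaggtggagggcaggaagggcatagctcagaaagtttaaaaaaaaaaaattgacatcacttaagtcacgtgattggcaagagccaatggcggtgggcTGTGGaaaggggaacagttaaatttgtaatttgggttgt
It held 1 TGTGG and 0 GATAA, against 57.7% and 29.3% of 5540 windows of 250 bases across the domain that held at least 1.

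Of the 10 enhancer elements that the study named by their distance from the P1 start site, 3 stretches are shown where the baits differed and 1 where they met, together with the only fragment in both lists between 300 and 400 kb upstream of P1. All are on the plus strand, with the same capitals as above. The −321 stretch (chr16:93147755-93147954) lies in a fragment listed for P1 alone. The −327 (chr16:93152979-93153178) and −58 (chr16:92884031-92884230) stretches lie in fragments listed for P1cc alone. The stretch between −321 and −327 (chr16:93150348-93150547) and that at +24 (chr16:92801975-92802165) lie in fragments listed for both.
−321: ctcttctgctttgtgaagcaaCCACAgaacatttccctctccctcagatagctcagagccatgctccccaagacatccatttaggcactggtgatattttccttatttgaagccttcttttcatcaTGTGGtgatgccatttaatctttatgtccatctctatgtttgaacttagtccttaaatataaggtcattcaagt
Between −321 and −327: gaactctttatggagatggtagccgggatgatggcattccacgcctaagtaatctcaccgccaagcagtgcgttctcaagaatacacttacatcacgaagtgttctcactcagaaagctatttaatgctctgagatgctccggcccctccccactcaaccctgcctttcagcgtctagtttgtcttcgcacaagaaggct
−327: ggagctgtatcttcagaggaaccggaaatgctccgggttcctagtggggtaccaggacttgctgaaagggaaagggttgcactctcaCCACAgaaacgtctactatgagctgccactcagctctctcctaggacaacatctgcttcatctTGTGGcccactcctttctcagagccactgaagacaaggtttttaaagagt
−58: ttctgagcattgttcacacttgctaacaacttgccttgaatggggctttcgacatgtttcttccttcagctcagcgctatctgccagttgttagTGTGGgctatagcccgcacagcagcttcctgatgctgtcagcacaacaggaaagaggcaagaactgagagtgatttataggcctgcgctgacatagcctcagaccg
+24: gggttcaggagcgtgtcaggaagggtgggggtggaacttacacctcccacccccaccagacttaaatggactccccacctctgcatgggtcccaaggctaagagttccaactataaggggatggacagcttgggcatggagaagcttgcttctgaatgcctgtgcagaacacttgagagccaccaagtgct
TGTGG occurred 2 times in the −321 stretch, 2 times in the −327 stretch and 1 time in the −58 stretch, and 0 times in the other two. GATAA occurred in none of them. Among 6925 windows of 200 bases across the domain, 49.9% held TGTGG and 24.3% GATAA.

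The lists of P1 and P1cc overlapped in part, most closely within 50 kb upstream of P1. Of the 395 fragments of P1, 236 (59.7%) were also listed for P1cc, and these made up 44.0% of the 536 fragments of P1cc and 34.0% of the union. Without fragments within 50 kb of a bait, the shares were 49.0% for P1 and 26.5% for P1cc. A further 159 were listed for P1 alone and 300 for P1cc alone. Inside the domain from 92250000 to 93635000, in which the study called interactions separately, 389 of 3221 *Dpn*II fragments (12.1%) were listed for P1 and 520 (16.1%) for P1cc. The same share was 21.2% for +24 and 24.9% for +24cc, baits at the enhancer in the first long intron, and 9.59% for P2 and 9.69% for P2cc, baits at the proximal promoter. All 236 fragments in both lists lay inside the domain, against 6 of P1 and 16 of P1cc outside it.

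When abutting fragments were merged into interactions, P1 formed 35 inside the domain and P1cc 45. An interaction was counted as shared where it overlapped 1 of the other bait by at least 1 base. For P1, 25 of 35 were shared (71.4%, 95% Wilson interval 54.9 to 83.7), and for P1cc 27 of 45 (60.0%, 45.5 to 73.0). These intervals cover counting error only, and neighbouring interactions are not independent. Of 1385 windows of 1 kb across the domain, 14.8% were overlapped by P1 interactions and 19.4% by P1cc interactions. Most interactions are longer than 1 kb, and no background was made at their own length. How far the shared counts exceed such a background is therefore unknown. P1 interactions covered 171.8 kb and P1cc interactions 224.7 kb, of which 99.4 kb in 30 stretches was common to both. The common bases made up 57.9% of those of P1, 44.3% of those of P1cc and 33.5% of all bases covered by either (Jaccard index).

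**Figure D1:**
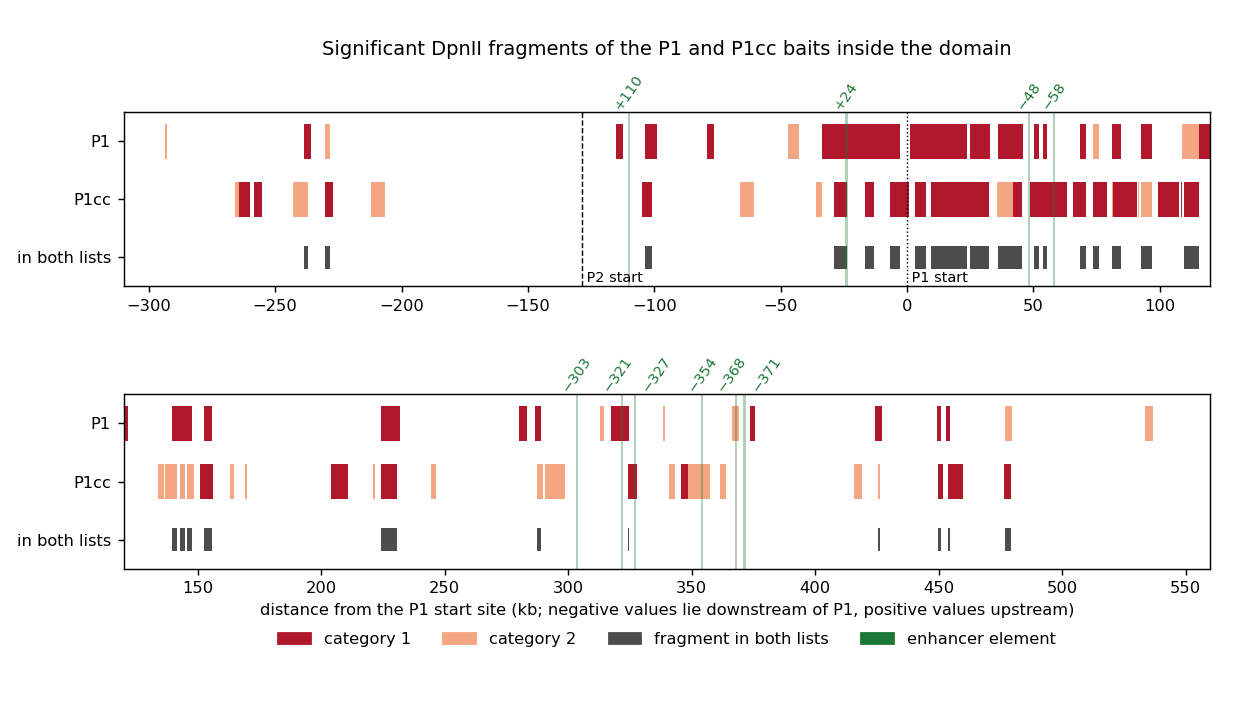
Each block is a *Dpn*II fragment listed for P1 (top), P1cc (middle) or both (bottom), plotted by its distance from the P1 start site in kb, with category 1 in red, category 2 in orange and the 10 enhancer elements in green. Both baits share a nearly continuous block up to 50 kb upstream of P1 and diverge between 300 and 400 kb.

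The fragments of 1 list alone were set against the interactions of the other bait. Of the 153 that were listed for P1 alone inside the domain, 103 (67.3%) belonged to an interaction that also overlapped P1cc by at least 1 base. For P1cc alone this was 112 of 284 (39.4%), and the other 172 formed interactions that P1 did not have. With an overlap of at least 50% of the interaction required, a rule chosen after these values were seen, it was 37 of 153 (24.2%) and 32 of 284 (11.3%). In distance, 66 of all 159 P1-only fragments (41.5%) lay within 3 fragments of the P1cc list, with a median distance of 1.81 kb. For the 300 P1cc-only fragments it was 65 (21.7%) and 4.25 kb. At the far end, 52 P1-only (32.7%) and 160 P1cc-only fragments (53.3%) were more than 10 fragments away. The lists differ in length, which by itself brings P1-only fragments closer to the longer P1cc list, so no difference between the baits is read from these distances.

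Shared interactions were longer than those of 1 bait. Their median was 3329 bp against 2594.5 bp for P1, and 4912 bp against 3211.5 bp for P1cc. No test was made, since a longer interaction is more likely to meet another. Those that were not shared lay a median of 8.58 kb (P1) and 5.87 kb (P1cc) from the nearest interaction of the other bait. Of these, 1 of 10 of P1 and 6 of 18 of P1cc were within 2 kb of it.

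The study graded interactions by how they depended on a single fragment. In a replicate, category 1 remained significant when the reads of the highest fragment in the window of 3 were removed. Category 2 did so when they were averaged with the neighbours. The lists mark as category 1 the fragments that were so in both replicates. All other listed fragments are called category 2 here, and may have been category 1 in 1 replicate. Category 1 made up 341 of 395 fragments of P1 (86.3%) and 350 of 536 of P1cc (65.3%). Of the 236 fragments in both lists, 167 (70.8%) were category 1 for both baits. Another 44 were so for P1 alone, 25 for P1cc alone and 0 for neither bait. Among fragments of 1 list, 130 of 159 P1-only (81.8%) and 158 of 300 P1cc-only (52.7%) were category 1.

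Counted by interaction, 25 of 35 of P1 (71.4%) and 26 of 45 of P1cc (57.8%) held a category 1 fragment. The difference of 13.7 percentage points (95% Newcombe interval −7.50 to 32.6) was not significant by a two-sided Fisher's exact test (p = 0.246, Benjamini-Hochberg adjusted p = 0.780 over 4 tests). With fragments as the unit it was 21.9 points (Fisher's exact test, adjusted p = 1.9e-13). Neighbouring fragments were called from overlapping windows, however, and are not independent counts. Both tests take the entries of 1 list per bait as units. They cover counting error only, and no variation between replicates. A category 1 fragment was found in 21 of 25 shared interactions of P1 and in 4 of its 10 others. For P1cc it was found in 20 of 27 shared and in 6 of 18 others.

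Both baits had more interactions upstream of P1 than downstream, in a domain that itself lies mostly upstream, with 1918 of its 3221 *Dpn*II fragments (59.5%) on that side. *Runx1* is on the minus strand (92601466 to 92826074), so upstream of P1 means a higher coordinate. Of the interactions inside the domain, 26 of 35 of P1 (74.3%, 57.9 to 85.8) and 34 of 45 of P1cc (75.6%, 61.3 to 85.8) were centred upstream of the P1 start site. The difference was −1.27 points (−20.5 to 17.1; Fisher's exact test, adjusted p = 1). It changed sign when fragments were merged over 1 kb (4.70 points) or 5 kb (6.28 points) or category 1 alone was used (2.92 points). No adjusted p was below 0.05. The test covers counting error only. Its 2 groups are also not independent, since they share cells and 25 of the 35 interactions of P1 overlapped those of P1cc.

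**Figure D2:**
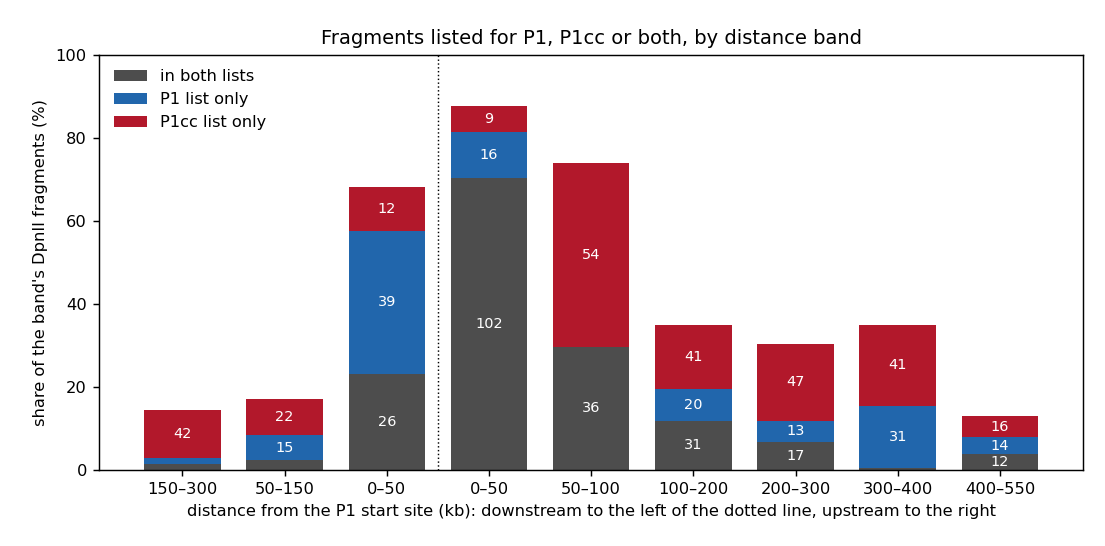
Bars give the share (%) of the *Dpn*II fragments in each distance band from the P1 start site that was listed for both baits, for P1 alone or for P1cc alone, with fragment counts inside the bars and downstream bands on the left. Fragments in both lists dominate within 50 kb upstream, and only 1 is found between 300 and 400 kb.

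Close to the promoter both profiles coincided on the upstream side. From 0 to 50 kb upstream, 118 of 145 fragments (81.4%) were listed for P1 and 111 (76.6%) for P1cc, and 102 were in both. All 3 interactions of each bait there were shared. The longest common stretch in the domain was found in this band, 14355 bp from 92835616 to 92849970, whose 43 fragments were all category 1 in both lists. On the downstream side, inside the first introns of *Runx1*, the lists lay further apart. From 0 to 50 kb, 65 of 113 fragments (57.5%) were listed for P1 and 38 (33.6%) for P1cc, with 26 in both.

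Each bait listed the fragment of the other as category 1, P1cc thereby reading exons 1 and 2 of *Runx1*. No other exon was overlapped by P1cc, and none by P1. Each list was empty in a run of fragments around its own bait. The methods removed the fragments adjacent to a bait as uncut, and why the others in these runs were not listed was not tested. The run spanned 6 fragments (3880 bp, 92823330 to 92827209) for P1, of which 5 were listed for P1cc. It also spanned 6 fragments (2203 bp, 92827014 to 92829216) for P1cc, of which 5 were listed for P1.

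The +24 enhancer, a haematopoietic enhancer in the intron between P1 and P2, was overlapped by category 1 interactions of both baits. For P1 it lay within a single run of 47 fragments from 92792478 to 92819216 (26739 bp). For P1cc it lay at the edge of a run of 8 fragments from 92797227 to 92802165 (4939 bp), which the P1 run contained entirely. P1cc had 1 more interaction inside the P1 run (92809570 to 92813026), and left the rest of it unlisted. The bait fragments of +24 and +24cc were category 1 in both lists, and the lists of +24 and +24cc in turn held the bait fragments of P1 and P1cc as category 1.

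Between 50 and 100 kb upstream P1cc listed fragments that P1 did not. P1cc listed 90 of 122 fragments there (73.8%) and P1 36 (29.5%), and all 36 were also in the P1cc list. P1 formed 6 interactions with 15.9 kb, all of them inside interactions of P1cc. Around the −58 and −48 elements, which the study placed 58 and 48 kb upstream of P1, P1cc listed 31 of 38 fragments and P1 12, with 12 in both. P1cc overlapped −58 (92883674 to 92884586) with 2 category 1 fragments in an interaction of 9 fragments from 92883190 to 92889567. The nearest interaction of P1 ended 2.19 kb away, at 92881482. P1cc also overlapped −48 (92873823 to 92874806) at its upstream edge, with 1 category 1 fragment, and P1 came to within 1.35 kb.

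The lists parted further with distance. From 100 to 200 kb upstream P1 listed 51 and P1cc 72 of 264 fragments, with 31 in both. From 200 to 300 kb it was 30 and 64 of 254, with 17 in both. The longest common stretch beyond 60 kb was here, 6713 bp from 93050196 to 93056908, with 12 fragments that were category 1 in both lists. P1cc had a category 1 interaction of 17 fragments from 93030199 to 93037057, 13.1 kb from the nearest of P1.

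Between 300 and 400 kb upstream both baits were engaged to a similar extent, yet at different fragments. P1 listed 32 of 209 fragments (15.3%) and P1cc 42 (20.1%), with 1 in both. P1 formed 5 interactions there and P1cc 4, and the single fragment from 93150224 to 93150670 (447 bp, category 1 in both lists) was the only place where they met. Its middle 200 bases are printed above. The 4 interactions of P1 in this band that were not shared lay 9.555, 1.686, 2.26 and 9.546 kb from the nearest of P1cc. Further out, from 400 to 550 kb, P1 listed 26 and P1cc 28 of 328 fragments and 12 were in both, in 4 shared interactions of 5 for each bait.

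This distal stretch carries 6 of the named elements. From −371 to −303 (93129158 to 93198031, 148 fragments), P1 listed 27 fragments and P1cc 42. The interactions alternated along it. P1 overlapped −321 (93147581 to 93148127) with 2 category 1 fragments, in an interaction of 15 category 1 fragments from 93143260 to 93150670. P1cc overlapped the next element, −327 (93152585 to 93153572), with 2 category 1 fragments in an interaction of 8 from 93150224 to 93154076. These 2 interactions were the ones that met in the shared fragment. Each bait passed the element of the other at about 2 kb, with P1 1.91 kb from −327 and P1cc 2.10 kb from −321.

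P1cc alone overlapped −354 (93179942 to 93180862), through 2 category 2 fragments in an interaction of 25 fragments from 93171793 to 93183340, of which 6 were category 1. P1 was 11.4 kb away. P1 alone overlapped −368, with 5 fragments of which 0 were category 1, in an interaction of 6 from 93192300 to 93195105, and P1cc was 3.54 kb away. P1 also came to within 1.55 kb of −371 with a category 1 interaction of 5 fragments, P1cc to 7.02 kb. Neither bait was within 2 kb of −303, at 8.80 kb (P1) and 4.29 kb (P1cc).

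**Figure D3:**
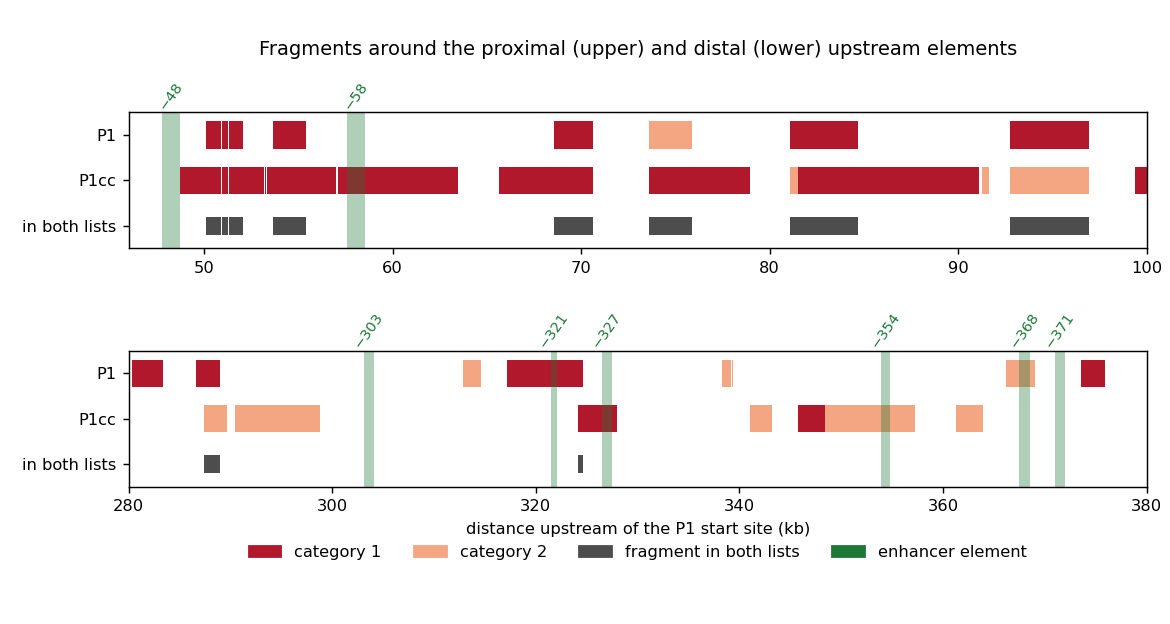
Blocks are listed *Dpn*II fragments by distance upstream of the P1 start site (kb), coloured as in the map of the whole domain, around −48 and −58 (upper panel) and from −303 to −371 (lower panel). P1 blocks lie inside P1cc blocks in the upper panel, whereas in the lower panel the blocks alternate and coincide near 288 kb and at 1 fragment between −321 and −327.

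With contact defined as an interaction within 2 kb, P1 contacted 7 of the 10 elements and P1cc 5. Both contacted −327, −48 and +24, and either contacted 9. By direct overlap P1 reached 3 (−368, −321 and +24) and P1cc 5 (−354, −327, −58, −48 and +24), and only +24 was overlapped by both. Within 5 kb it was 8 for P1 (all but −354 and −303) and 9 for P1cc (all but −371). Most elements, among them −368, −327 and −321, were thus within 5 kb of both baits. Of 1385 windows of 1 kb across the domain, 22.8% lay within 2 kb of an interaction of P1 and 27.5% of P1cc. Direct contact was met by 14.8% and 19.4% of these windows, and 5 kb by 31.0% and 34.9%. The study had selected 9 of the elements partly by their closeness to interactions of any of its baits, so these counts are not independent evidence of contact. The −368, +24 and +110 elements were placed by their names, with 500 bp on either side. With the lengths of the cloned fragments instead, P1 contacted 6 elements within 2 kb, without +110, and P1cc the same 5.

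**Figure D4:**
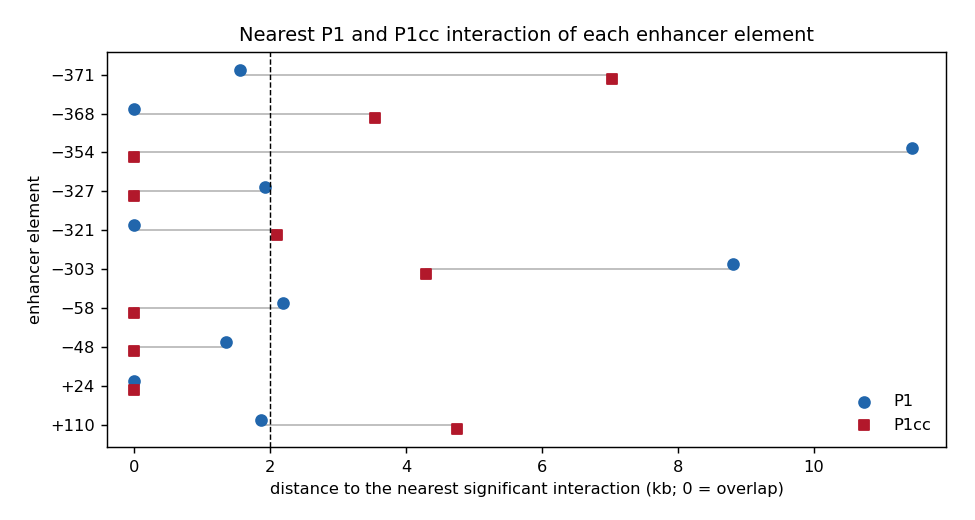
Points give the distance (kb) from each of the 10 enhancer elements to the nearest significant interaction of P1 (circles) or P1cc (squares), where 0 is overlap and the dashed line marks 2 kb. Only +24 is at 0 for both baits, and −354 shows the widest separation, at 11.4 kb for P1 and 0 for P1cc.

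Downstream of +24 the contacts thinned out for both baits, and neither reached the proximal promoter. The P1 and P2 start sites are 128.7 kb apart. The nearest interaction to the P2 bait fragment was 13.4 kb away for P1 and 23.7 kb for P1cc, and to that of P2cc 12.3 and 22.5 kb. In return, the P1 bait fragment was in neither the P2 list (1.77 kb away) nor the P2cc list (2.86 kb). The P1cc bait fragment was 4.52 kb from the P2 list and 0.133 kb from the P2cc list. P1 came to within 1.87 kb of the +110 element with a category 1 interaction of 7 fragments (92711051 to 92713708), and P1cc to 4.75 kb. In the intron between the promoters P1 covered 45.0 kb and P1cc 26.6 kb, with 15.0 kb in common.

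Past P2 the profiles differed again. From the P2 start site to the end of *Runx1* P1 listed 0 of 224 fragments. P1cc listed 10, in a single interaction from 92614136 to 92619480 with 0 category 1 fragments, within an intron. Downstream of the gene P1 covered 4.94 kb and P1cc 18.0 kb, with 3.03 kb in common. The common part lay in and next to *Gm30224*, a long non-coding RNA gene 5.32 kb beyond *Runx1*, which each bait met with 2 interactions. *Clic6*, a chloride intracellular channel family gene at the downstream edge of the domain, was overlapped by P1 with 2 category 2 fragments (92532667 to 92533274). P1cc was 19.1 kb away from it.

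Towards the upstream edge, 535.2 kb upstream of P1, P1 had a category 2 interaction of 6 fragments (93359575 to 93363013). It lay 0.031 kb upstream of the start of the non-coding gene *1810053B23Rik*. The nearest interaction of P1cc was 38.3 kb from this gene. *Mir802*, *1700029J03Rik*, *Setd4* and *Cbr1* were overlapped by neither bait, in their bodies or 2 kb upstream. Beyond the domain P1 had 2 interactions and P1cc 4, none of them shared. *Dop1b* was overlapped by 2 of each bait, at different fragments. P1cc also overlapped *Itsn1*, which encodes an endocytic scaffold protein, with 3 category 1 fragments. It further lay 1.38 kb upstream of *Cbr3*, a carbonyl reductase gene, with 7 category 1 fragments.

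The lists of the other 4 baits were not used to choose these fragments. Of the 236 fragments listed for both P1 and P1cc, 66.1% (59.8 to 71.8) were also listed for +24 or +24cc. This was 69.9% (62.3 to 76.6) of 153 P1-only and 58.5% (52.6 to 64.0) of 284 P1cc-only fragments, against 23.1% (21.5 to 24.8) of the 2548 fragments in neither list. For P2 or P2cc the shares were 29.7%, 25.5%, 12.7% and 12.1% in the same order. For the +24 baits, the intervals of all 3 listed classes lay above that of the unlisted fragments.

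The order of the classes changed when the neighbourhood of P1 was left out. Over 50 kb from the P1 start site, 45.4% (36.3 to 54.8) of 108 fragments in both lists were listed for +24 or +24cc. Among 98 P1-only fragments it was 61.2% (51.3 to 70.3), among 263 P1cc-only fragments 55.1% (49.1 to 61.0) and among 2494 others 21.8% (20.2 to 23.4). Fragments in both lists were hence not above those of 1 list in this measure, and the intervals of the 3 listed classes overlapped. For P2 or P2cc it was 12.0% (7.17 to 19.5) of fragments in both lists, 21.4% (14.5 to 30.5) of P1-only, 13.7% (10.1 to 18.4) of P1cc-only and 12.1% (10.8 to 13.4) of the others. Neighbouring fragments are not independent, so the intervals are too narrow, and no test was made.

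**Figure D5:**
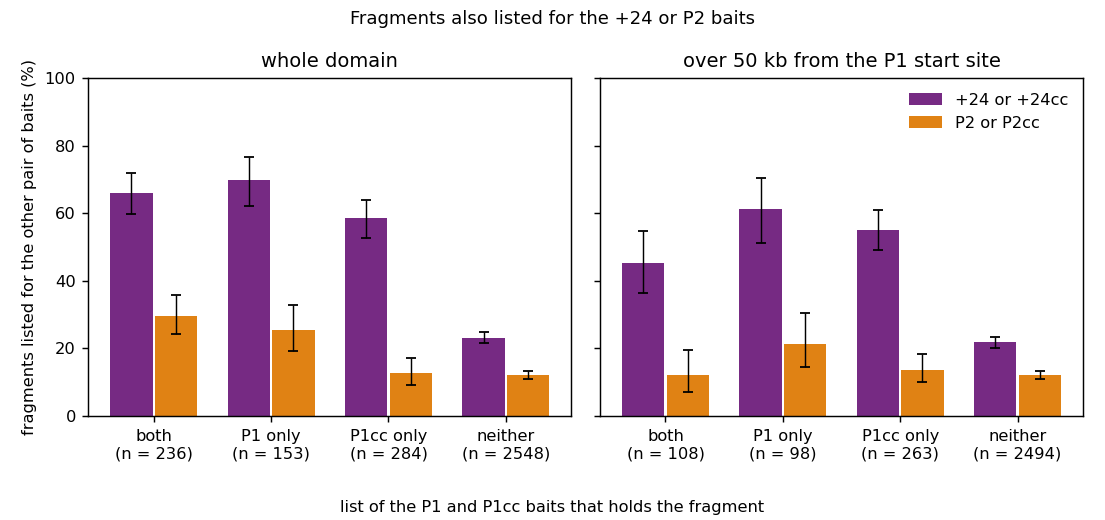
Bars give the share (%) of fragments inside the domain that were also listed for +24 or +24cc (purple) or for P2 or P2cc (orange), by whether the fragment was in both lists, in that of P1 or P1cc alone, or in neither, with 95% Wilson intervals. Within the whole domain P1cc-only fragments stand at 12.7% for the P2 baits, beside 12.1% of fragments in neither list.

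Counted by interaction, 19 of 25 shared and 8 of 10 unshared interactions of P1 overlapped one of +24 or +24cc. For P1cc it was 18 of 27 and 12 of 18. With P2 or P2cc, 10 of 25 and 4 of 10 of P1 overlapped, and 9 of 27 and 2 of 18 of P1cc. As background, windows of the median length of P1 interactions (2806 bp) overlapped +24 or +24cc in 41.8% and P2 or P2cc in 20.1% of 493 cases across the domain. For windows of the median P1cc length (4503 bp) it was 44.0% and 22.5% of 307. Without interactions within 50 kb of a bait, 13 of 19 shared interactions of P1 and 12 of 21 of P1cc overlapped +24 or +24cc. In the same subset 5 of 19 and 4 of 21 overlapped P2 or P2cc, and over all distances with category 1 of P2 or P2cc alone 2 of 10 unshared interactions of P1 did. No other bait was met by 4 of 25 shared and 1 of 10 unshared interactions of P1, or by 8 of 27 and 6 of 18 of P1cc.

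Length and base composition of the fragments were compared between the classes inside the domain, without a test. The median length was 323.5 bp for fragments in both lists, 355 bp for P1-only, 284 bp for P1cc-only and 280.5 bp for fragments in neither. Median GC content was 45.4%, 45.5%, 45.6% and 47.0%. A *Bfa*I site was present in 55.9%, 58.8%, 48.9% (43.2 to 54.7) and 54.0% (52.1 to 55.9) of them. The CTCF core occurred 2.82 times per 10 kb in fragments of both lists, 4.01 in P1-only, 2.39 in P1cc-only and 3.29 in fragments of neither. The counts behind these densities were 28, 29, 30 and 358 matches.

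The share of interactions common to P1 and P1cc was compared with that of the other bait pairs, and no difference passed the test. Adding both baits of a pair, 52 of 80 interactions of the P1 pair (65.0%, 54.1 to 74.5) overlapped one of the partner bait, against 78 of 111 of the +24 pair (70.3%, 61.2 to 78.0). The difference was −5.27 points (−18.6 to 7.89; Fisher's exact test, adjusted p = 0.780). Against the P2 pair, with 39 of 56 (69.6%, 56.7 to 80.1), it was −4.64 points (−19.8 to 11.5; Fisher's exact test, adjusted p = 0.780). This second difference turned to 10.6 points when interactions within 50 kb of a bait were left out, with 40 of 66 against 17 of 34 shared (Fisher's exact test, adjusted p = 0.706). A p above the threshold does not show that the pairs were equally alike, and a shared contact enters such a count from both of its baits. A list that covers more of the domain is met by 1 base more readily. The share of domain fragments listed was 12.1% and 16.1% for P1 and P1cc. It was 21.2% and 24.9% for +24 and +24cc, and 9.59% and 9.69% for P2 and P2cc. By the study's methods the +24 baits also had another second enzyme, *Mse*I. The test cannot tell a difference in sharing from a difference in list density.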

How the data were processed

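4C-seq of 6 *Runx1* baits was made in HPC-7 cells, with 12 ligated and 6 control libraries, and samples were grouped by bait from their labels. According to the study's methods, the authors mapped reads to mm10 with Bowtie, assigned them to *Dpn*II fragments with fourSig, and removed self-ligated and uncut reads and those on fragments with control reads. They called significant interactions in each replicate (window of 3) over chromosome 16 and over the domain, and intersected the replicates. The deposited lists give each fragment's place and category, and their score column, as the authors deposited it, reads 1000 throughout. The depth behind each entry is unknown.

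Here, each fragment was matched to the *Dpn*II sites of GRCm38.p6, abutting fragments were merged, and an interaction was inside the domain by its midpoint. Bait and cloning primers were located with edlib 1.3.9.post1 (up to 1 difference). Gene positions came from curated RefSeq transcripts. Shares of 2 groups were set against each other by Fisher's exact test (two-sided), and p-values were adjusted by Benjamini-Hochberg over 4 tests (scipy 1.17.1), with Wilson intervals (95%) on counts. Python 3.11.15, numpy 2.4.6 and matplotlib 3.10.9 were used. Merging, overlap and the test were tested on simulated data. Alternatives were other merging distances, category 1 alone, other definitions of sharing and contact, and leaving out fragments near a bait.

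Genes named were those overlapped by P1 or P1cc (body or 2 kb upstream), the genes at the domain's edges and the non-coding genes that the study names. The baits, lists, distance bands and tests were chosen with earlier results of these data known. The replicates came from different passages of the line, and the labels do not say which number is which. ChIP-seq, Hi-C, expression and read-level data were not analysed here.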

Additional observations from a re-analysis of the deposited data

How the results depend on the processing

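No paired analysis was possible because the deposited lists hold the intersection of both replicates and carry no values per replicate, and for the same reason no replicate could be left out. Of 62 recomputed values of 21 results, 40 kept both direction and side of the threshold, or, without a test, stayed within their interval or within 1.5 times their count. The share of P1 fragments also listed for P1cc was 49.0% with category 1 alone, 66.3% and 76.5% when the other list was allowed within 1 and 3 fragments, and 49.0% without fragments within 50 kb of a bait. For P1cc fragments it was 49.1% within 1 fragment, 56.2% within 3, and 36.4% and 26.5% without fragments within 20 and 50 kb. With an overlap of at least 50% required, 54.3% of P1 and 40.0% of P1cc interactions were shared, and without 50 kb around the baits the Jaccard index was 23.1%. The difference in the upstream share turned to 4.70 (merged over 1 kb), 6.28 (5 kb) and 2.92 points (category 1 alone). The difference from the P2 pair turned to 1.61 (merged over 1 kb) and 10.6 points (without 50 kb). The category 1 difference was 21.9 points with fragments unmerged, where fragments are not independent. P1 overlapped 3 elements directly, P1cc lay within 5 kb of 9, and 52.0% of shared P1 interactions met category 1 of +24 or +24cc. The causes were not tested. Fragments without enough reads cannot be told apart from fragments without contact.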
